A study of Mus musculus with 4 samples.

Results

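The genes of the constitutive proteasome were compared between livers of mice with and without AApoAII amyloidosis and with and without interval training (IT). Members were taken by symbol: every protein-coding row of the deposited read count table named Psma, Psmb, Psmc, Psmd, Psme or Psmf followed by a number, without the immunoproteasome subunits Psmb8, Psmb9 and Psmb10. This rule gave 41 of the 35275 genes listed. Of these, 16 encode the core particle (Psma and Psmb), 17 the regulatory particle (Psmc1 to Psmc6 and 11 of the Psmd genes), 3 base assembly chaperones (Psmd5, Psmd9 and Psmd10) and 5 other activators and an inhibitor (Psme1 to Psme4 and Psmf1). A total of 40 members reached at least 1 CPM (count per 1000000 counts) in a library. The remaining member, Psmb11, the thymus-specific catalytic subunit, had a count of 0 in every library, and no ratio is given for it.

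The proteasome degrades proteins that carry a ubiquitin chain. Its core particle is a barrel of stacked rings, with outer alpha rings that gate the entrance and inner beta rings that hold the proteolytic sites of Psmb5 (chymotrypsin-like), Psmb6 (caspase-like) and Psmb7 (trypsin-like). The regulatory particle caps the barrel: its base unfolds substrates with a ring of ATPases, its ubiquitin receptors bind the chain, and its lid removes the ubiquitin. Subunit genes are known to be induced together by the transcription factor NRF1 (Nfe2l1) when proteasome capacity is short.

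Liver RNA came from 16 female mice in 4 groups: sedentary mice given vehicle (VS), vehicle mice under IT (VI), sedentary mice given fibrils (FS), and fibril mice under IT (FI). All mice carried the amyloidogenic Apoa2c allele; the labels give the strain as AKR/J with a congenic Apoa2c genotype, and the study's methods name R1.P1-Apoa2c mice. FS and FI mice had received AApoAII fibrils intravenously and VS and VI mice vehicle, and livers were taken at 26 weeks of age, after 16 weeks of IT or sedentary housing. Each group was sequenced as a single pool of 4 livers, and so is 1 library. The comparison of VI with VS and of FI with FS addresses IT, and that of FS with VS and of FI with VI addresses amyloidosis. VS is common to VI versus VS and FS versus VS, and FI to FI versus FS and FI versus VI.

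Total counts lay between 23442935 in VS and 28814802 in FS. Counts were scaled by the TMM method to CPM, and 12180 genes reached 1 CPM in a library. A count of 0 allows up to 3 counts, at most 0.127 CPM. With 1 pool per group, differences between pools have no replicate error, and all intervals given are 95% counting intervals, which hold neither variation between mice nor between library preparations. The VS library stood apart in markers of other tissues: the summed level of 10 skeletal muscle genes reached 76.3 CPM there, and 9.85, 0.982 and 0.827 CPM in VI, FS and FI. The 6 pancreas genes were also highest in VS, at 23.2 CPM against 12.8 to 15.2 elsewhere, nearly all of it from Cela1. FI versus FS and FI versus VI do not use the VS library. The 8 hepatocyte genes listed were all above 1 CPM and took between 157267 and 175921 CPM together. In whole liver, fewer cells of a type and less RNA per cell cannot be told apart.

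Per gene length, core subunits were the most abundant members. The highest FPKM (the count scaled by gene length and library total, as deposited) was that of Psmb1, a beta ring subunit without proteolytic site, at 143, 142, 136 and 124 in VS, VI, FS and FI, in that order. The median over the expressed core genes lay between 50.6 FPKM in FI and 59.8 in FS, against 32.1 in VI to 39.5 in FS over the regulatory particle. Among the catalytic subunits, Psmb6 (112 to 131 FPKM) and Psmb7 (87.8 to 103) exceeded Psmb5 (49.1 to 57.3) in each library. In the regulatory particle, Psmd8 of the lid was highest (68.9 to 76.2 FPKM), and Psmd14, the deubiquitinase of the lid, was lowest in VI, FS and FI (11.7 to 16.0 FPKM), whereas the scaffold subunit Psmd1 was lowest in VS (14.4 FPKM). Psma8, the testis-specific alpha subunit, was the least abundant member with a value, between 0.476 FPKM in FI and 1.06 in VS. The order of the members was nearly the same in every library: Spearman's rho between pairs of libraries lay between 0.983 and 0.995 across the members, which share gene length and base composition between libraries.

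**Figure D1:**
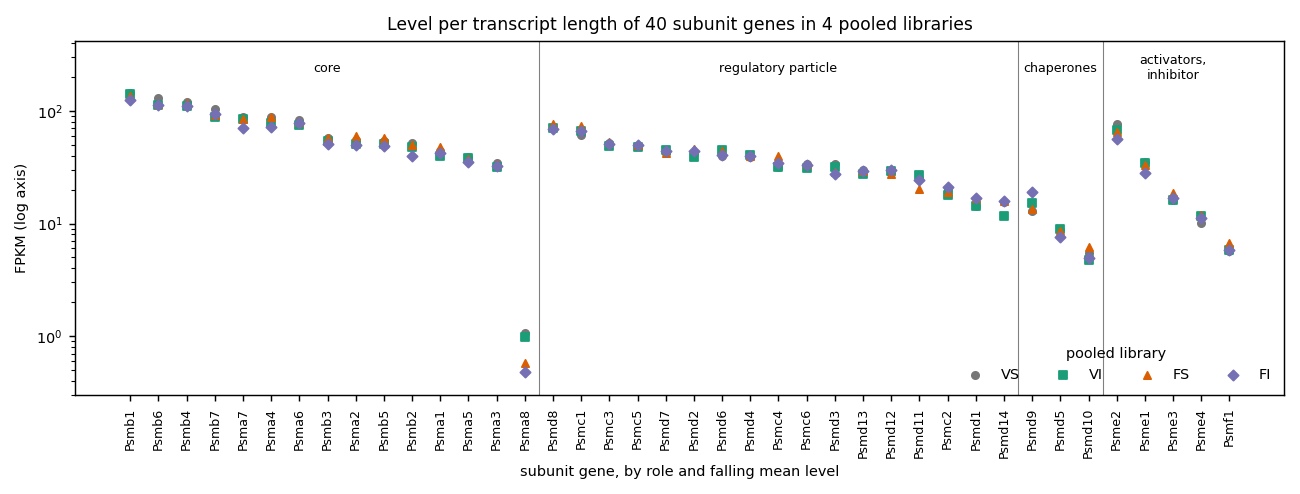
Deposited FPKM (log axis) of the 40 expressed subunit genes, grouped by role and ordered within each role by mean level, with 1 marker for each of the pooled libraries VS, VI, FS and FI. Psmb1 is highest, at 124 to 143 FPKM, Psma8 is lowest, at 0.476 to 1.06 FPKM, and for most genes the markers of the 4 libraries lie on top of each other.

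Across libraries the members varied little. The summed level of all 41 genes was 2851, 2778, 2803 and 2782 CPM in VS, VI, FS and FI, or 0.271% to 0.287% of the counts. In 27 of the 40 expressed members (67.5%), the highest library was less than 1.2 times the lowest, against 19.0% of all expressed genes and 29.6% of the 4337 other protein-coding genes at 20 to 200 CPM, the range in which 38 members lie. The median of this ratio was 1.15 over the members, 1.39 over all expressed genes and 1.28 over other protein-coding genes at 20 to 200 CPM. In single contrasts, differences beyond 1.5-fold were rare among the members. Between VI and VS, 0 of 40 members differed by more than 1.5-fold, where 11.6% of all genes did. Between FI and FS it was 1 member, Psmd9, against 13.5% of all genes. At a fold of 1.51 it lay at the edge, and it was within 1.5-fold when counts were divided by the total alone or FPKM was used. Between FS and VS it was 1 member, Psma8, against 17.6%, and between FI and VI it was Psma8 again, against 14%. Psma8 reached 1 CPM in VS and VI only, so it passed the filter through the libraries where it was high.

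Within this narrow range, the proportion of regulatory to core counts was lowest in VS and highest in FI. The core genes summed to 1283, 1195, 1222 and 1163 CPM in VS, VI, FS and FI. The regulatory genes summed to 1226, 1229, 1236 and 1278 CPM in VS, VI, FS and FI. The core was therefore highest in VS and lowest in FI, and the regulatory particle was highest in FI. The ratio of regulatory to core counts was 0.956 (interval 0.941 to 0.971) in VS, 1.01 (0.997 to 1.03) in FS, 1.03 (1.01 to 1.05) in VI and 1.10 (1.08 to 1.12) in FI. The intervals of VS and FI overlapped with no other library, and those of FS and VI overlapped each other.

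**Figure D2:**
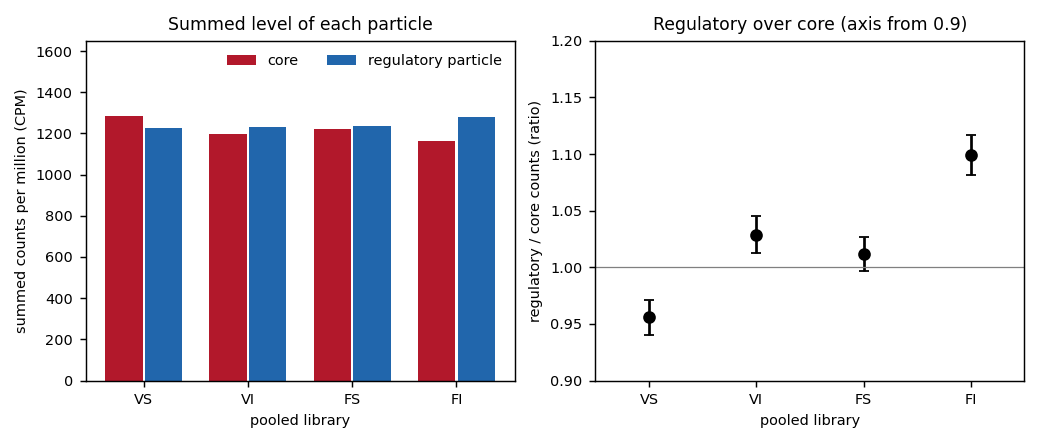
Left, summed CPM of the 15 expressed core genes and the 17 regulatory genes in each pooled library. Right, ratio of regulatory to core counts in each library with 95% counting intervals (axis from 0.9); the ratio runs from 0.956 in VS to 1.10 in FI.

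As changes, the summed core counts differed by −6.84% between VI and VS (log2 ratio −0.102, interval −0.126 to −0.0790) and by −4.82% between FI and FS (−0.0713, −0.0939 to −0.0488). The same sum differed by −4.76% between FS and VS and by −2.70% between FI and VI. For the regulatory particle, the sum differed by 0.249% between VI and VS and by 0.772% between FS and VS, and both intervals held 0. It was 3.41% higher in FI than in FS and 3.95% higher in FI than in VI. The sign of the difference between FI and FS depended on the scaling, being lower in FI when counts were divided by the total alone (log2 ratio −0.0226). The difference between both particles is the same under any scaling by 1 factor per library. With FPKM, which weighs genes by length, it was 0.105 in FI versus FS and 0.102 in FS versus VS. The log2 ratio of the regulatory particle exceeded that of the core by 0.106 (0.0730 to 0.139) in VI versus VS and, with IT in fibril mice, by 0.120 (0.0883 to 0.151). The excess was 0.0815 (0.0502 to 0.113) in FS versus VS and, between both IT libraries, 0.0953 (0.0624 to 0.128). The excess was above 0 under every alternative tried, of which scalings by 1 factor per library could not have changed it. Gene by gene, VS was the highest library for 11 of the 15 expressed core genes and for 1 of the 17 regulatory genes, where it was the highest for 26.5% of all expressed genes. FI was the highest library for 0 core genes and 10 regulatory genes, against 26.8% of all expressed genes.

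Gene length moved with this difference. Core genes had a median listed length of 1165 bases and regulatory genes one of 1883 bases. Among other protein-coding genes at 20 to 200 CPM, the median log2 ratio was lower for short than for long genes in all 4 contrasts. In VI versus VS it was −0.0668 over 216 genes under 1000 bases and 0.0564 over 2387 genes over 3000 bases, and in FS versus VS the same medians were −0.200 and 0.0425. Measured against the median of their own length class, 12 of 15 core genes lay below it in VI versus VS and 9 of 15 in FI versus FS, but 12 of 15 lay above it in FS versus VS and 11 of 15 in FI versus VI. Of the 17 regulatory genes, 9 lay above it in VI versus VS, 13 in FI versus FS, 14 in FS versus VS and 15 in FI versus VI. With each member set against its length class, the median regulatory gene exceeded the median core gene by 0.0815 and 0.138 in the IT contrasts without and with fibrils, where the plain medians differed by 0.0971 and 0.181. In the amyloidosis contrasts without and with IT it did so by 0.0125 and 0.0573, where the plain medians differed by 0.0759 and 0.0913. Restricted to the 10 core and 11 regulatory genes of 1000 to 2000 bases, the difference of the sums was 0.114, 0.0762, 0.140 and 0.102 in the same order of contrasts. This window did not match length. It held 7 core and 2 regulatory genes at 1000 to 1500 bases, and 3 and 9 at 1500 to 2000. In FS versus VS the medians of other genes in these 2 classes were −0.138 and −0.0703. The part of length in the difference was not tested further.

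**Figure D3:**
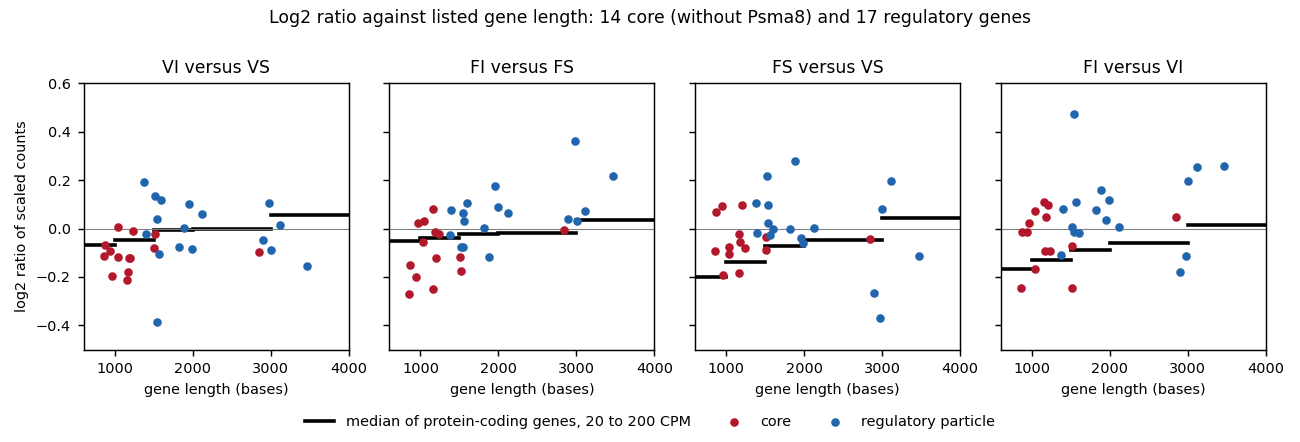
Log2 ratio of 14 core genes (red, without Psma8) and 17 regulatory genes (blue) against listed gene length, 1 panel per contrast. Black lines give the median log2 ratio of other protein-coding genes at 20 to 200 CPM in 5 length classes, which goes from −0.200 under 1000 bases to 0.0425 over 3000 bases in FS versus VS.

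In the alpha ring, all 8 members had a lower value in VI than in VS, as did 49.3% of all genes, and 7 of 8 had a lower value in FI than in FS, as did 49.8%. In each of these contrasts, 4 of the 8 intervals lay below 0 and 4 held 0. Psma4 had the clearest difference, at 103, 90.8, 101 and 85.2 CPM in VS, VI, FS and FI. Both IT libraries were thus below both sedentary libraries, by a log2 ratio of −0.18 (−0.26 to −0.10) without and −0.25 (−0.33 to −0.17) with fibrils. Psma1 also had both intervals below 0 with IT, with a log2 ratio of −0.12 in each contrast. Psma7, in contrast, was at 132, 130, 124 and 110 CPM in VS, VI, FS and FI, lowest in FI, and FS was also below VS with an interval below 0 (log2 ratio −0.09, −0.16 to −0.02). Psma8 had few counts, at 1.8, 1.7, 0.9 and 0.8 CPM in VS, VI, FS and FI, and its log2 ratios of −0.90 (−1.65 to −0.18) and −1.01 (−1.88 to −0.22) with amyloidosis have wide intervals.

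The beta ring summed to 711, 658, 663 and 646 CPM in VS, VI, FS and FI, highest in VS. The catalytic subunits did not share a single pattern. Psmb5 was at 46.4, 44.3, 48.7 and 43.9 CPM in VS, VI, FS and FI. Its value was lower in the IT library of each pair, with an interval below 0 in FI versus FS only (log2 ratio −0.15, −0.27 to −0.04). Psmb6 stood out in VS alone, with 125 CPM there, 109 in VI, 110 in FS and 111 in FI. The contrasts that rest on VS gave log2 ratios of −0.20 (−0.27 to −0.12) for VI and −0.19 (−0.26 to −0.12) for FS, and the others 0.02 each. Psmb7 was at 119, 102, 104 and 111 CPM in VS, VI, FS and FI, and likewise highest in VS. It shares 11.8% of its exon bases with Nek6 on the opposite strand, whose counts were 464, 508, 969 and 739 in VS, VI, FS and FI; the sources used here do not say whether reads were counted by strand. Psmb7 alone had log2 ratios of −0.21 in VI versus VS, 0.08 for IT in fibril mice, −0.18 in FS versus VS and 0.11 between the IT libraries. With all reads of Nek6 added these became −0.17, 0.04, −0.01 and 0.20. The intervals then held 0 for IT in fibril mice (−0.03 to 0.11) and for FS versus VS (−0.08 to 0.06). These sums include Nek6 reads outside the shared bases, so they also carry the level of Nek6 itself. Among the structural subunits, Psmb2 had its lowest level in FI (34.8 CPM, against 41.3 to 44.7 elsewhere) and Psmb1 had both intervals below 0 with amyloidosis (log2 ratio −0.10 without and −0.17 with IT).

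**Figure D4:**
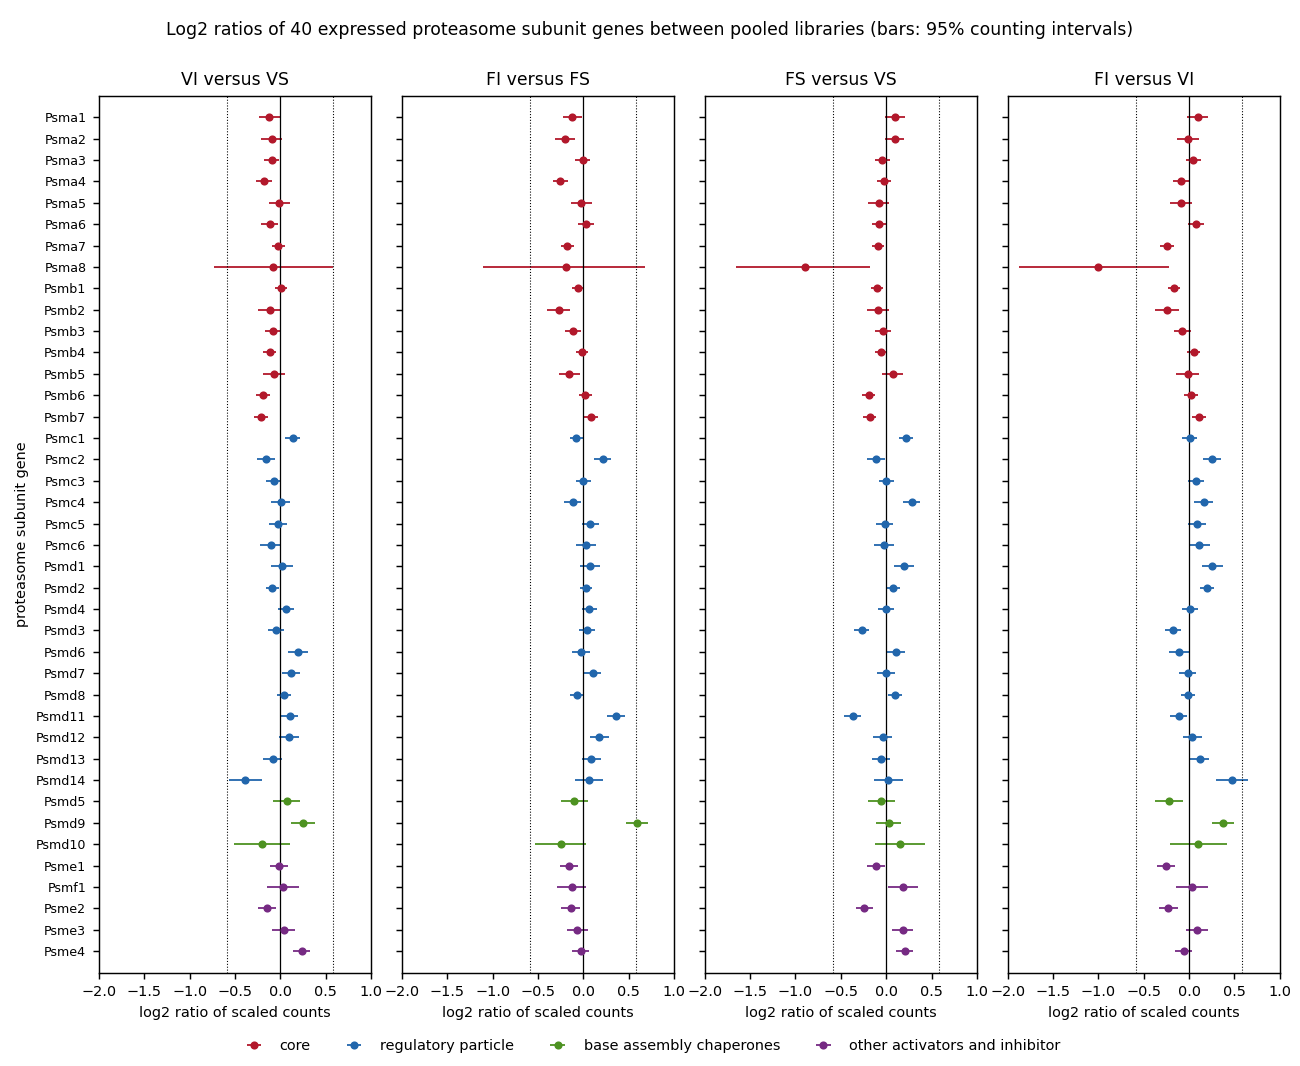
Log2 ratio of each of the 40 expressed subunit genes in the 4 contrasts, with 95% counting intervals, coloured by role; dotted lines mark 1.5-fold. Most points lie within 0.3 of 0. Psmd9 lies at 0.59 in FI versus FS, and Psma8 near −1 in both amyloidosis contrasts with wide intervals.

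The 6 ATPases of the base summed to 437, 429, 458 and 462 CPM in VS, VI, FS and FI, and all 6 had a higher value in FI than in VI, as did 51.3% of all genes. Of the 6 intervals in FI versus VI, 2 lay above 0 and 4 held 0. Psmc4 was at 59.7, 59.8, 72.5 and 66.8 CPM in VS, VI, FS and FI. Both fibril libraries were above both vehicle libraries, with log2 ratios of 0.28 (0.18 to 0.38) without and 0.16 (0.06 to 0.26) with IT. Psmc1 was lowest in VS, at 92.7 CPM, and at 102 in VI, 108 in FS and 102 in FI. Psmc2 was at 69.4, 62.3, 64.1 and 74.4 CPM in VS, VI, FS and FI, so that IT went with a lower value in vehicle mice (log2 ratio −0.16) and a higher value in fibril mice (0.22).

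The non-ATPase base subunits Psmd1, Psmd2 and Psmd4 summed to 253, 249, 267 and 276 CPM in VS, VI, FS and FI. Psmd1, a scaffold that binds ubiquitin receptors, was at 44.3, 44.8, 50.8 and 53.5 CPM in VS, VI, FS and FI. Its fibril libraries were both above its vehicle libraries, by a log2 ratio of 0.20 (0.08 to 0.31) and 0.25 (0.14 to 0.37). Psmd2, the other large scaffold, was at 126, 118, 133 and 136 CPM in VS, VI, FS and FI, in the same order of fibril over vehicle. Psmd4, a ubiquitin receptor, was at 82.6, 86.1, 82.6 and 86.5 CPM in VS, VI, FS and FI. Its intervals held 0 in every contrast.

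The lid summed to 537, 551, 512 and 540 CPM in VS, VI, FS and FI. Psmd11, a lid subunit known to promote assembly of the complete proteasome, was at 75.4, 81.2, 58.4 and 74.9 CPM in VS, VI, FS and FI. FS was the low library: against VS its log2 ratio was −0.37 (−0.47 to −0.27), and FI exceeded it by 0.36 (0.26 to 0.46). Up to 52.7% of the Psmd11 transcript is found in A730017L22Rik at 97.9% identity, and with the reads of both genes added these ratios were −0.37 and 0.29. In VI versus VS, Psmd11 alone had a log2 ratio of 0.11 (0.01 to 0.20), and with the added reads it was 0.06 (−0.03 to 0.14), an interval that holds 0. Psmd14, the deubiquitinase that cuts ubiquitin chains from the substrate, was low in VI, with 23.7, 18.1, 24.0 and 25.1 CPM in VS, VI, FS and FI. IT thus went with a log2 ratio of −0.39 (−0.57 to −0.20) in vehicle mice and 0.06 (−0.10 to 0.22) in fibril mice. Psmd3 was at 96.5, 93.5, 80.2 and 82.4 CPM in VS, VI, FS and FI, with both fibril libraries low, by log2 ratios of −0.27 and −0.18. Psmd7 had both intervals above 0 with IT (log2 ratio 0.12 and 0.11). Psmd6 was highest in VI, at 62.4 CPM, and at 54.6 in VS, 58.8 in FS and 57.8 in FI.

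Psmd9 had the largest difference with IT of all members. This gene (chr5:123228190-123250131 in the deposited table, plus strand) encodes a chaperone that escorts the ATPases during assembly of the base and is not part of the finished particle. It was at 33.7, 40.1, 34.3 and 51.8 CPM in VS, VI, FS and FI. Both IT libraries exceeded both sedentary libraries, by a log2 ratio of 0.25 (0.11 to 0.39) without fibrils and 0.59 (0.47 to 0.71) with fibrils, a fold of 1.51 in FI. The difference between both ratios was 0.34, with a counting interval above 0. A total of 25.5% of its exon bases is shared with Gm26745 on the opposite strand, which had between 1 and 4 counts. The other base chaperones had lower values in FI than in FS, with intervals that held 0: Psmd5 was at 29.3, 30.8, 28.2 and 26.4 CPM in VS, VI, FS and FI, and Psmd10 was below 9 CPM in every library.

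Of the other activators, Psme1 and Psme2 form the 11S cap that is known to be inducible by interferon. Psme2 was at 72.8, 65.6, 61.6 and 56.0 CPM in VS, VI, FS and FI. VS was the highest and FI the lowest library, and all 4 intervals lay below 0, with log2 ratios of −0.15 and −0.14 with IT and of −0.24 and −0.23 with amyloidosis. Psme2b, a gene at 99.4% identity over 82.5% of the Psme2 transcript, had 62 to 96 counts, and with its reads added the same log2 ratios were −0.14, −0.15, −0.22 and −0.23. Psme1 was at 69.2, 68.4, 64.1 and 57.3 CPM in VS, VI, FS and FI, again lowest in FI. Psme3, the nuclear activator, was at 42.4, 43.5, 48.2 and 46.1 CPM in VS, VI, FS and FI. Psme4, the activator PA200, was low in VS alone, with 65.4 CPM there, 76.9 in VI, 75.4 in FS and 73.8 in FI. Psmf1, an inhibitor of the core, was at 21.8, 22.2, 24.8 and 22.7 CPM in VS, VI, FS and FI. Its interval lay above 0 in FS versus VS only, with a log2 ratio of 0.19 (0.03 to 0.36).

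**Figure D5:**
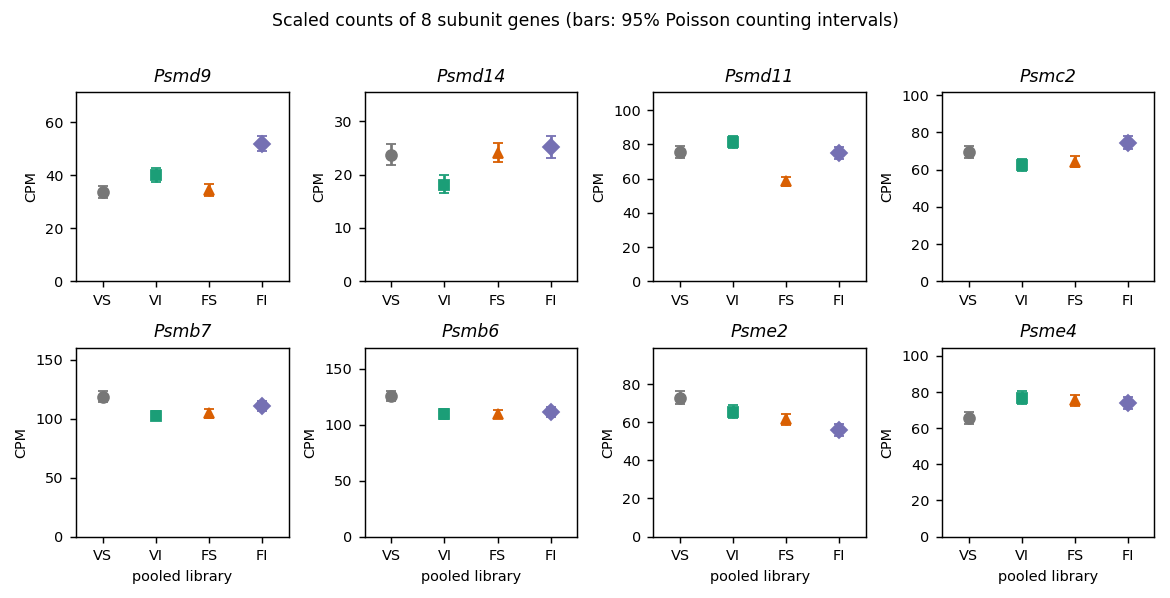
CPM of 8 subunit genes in each pooled library with 95% Poisson counting intervals; each vertical axis starts at 0. Psmd9 is highest in FI (51.8 CPM), Psmd14 is lowest in VI (18.1 CPM), Psmd11 is lowest in FS (58.4 CPM) and Psmb6 is highest in VS (125 CPM).

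A test across the 4 libraries was possible only in an additive model, in which the departure from additivity is the single residual degree of freedom and stands in for the missing replicates. By the quasi-likelihood test of edgeR, with p-values adjusted over 11760 genes by Benjamini-Hochberg, 0 of 40 members passed an adjusted p of 0.05 for amyloidosis, where 4.97% of all genes did, and 0 of 40 passed for IT, where 1.48% did. At an unadjusted p below 0.05, 1 member was lower with amyloidosis (Psma8, edgeR adjusted p = 0.156), against 10.5% of all genes. For IT, 1 member was higher (Psmd9, log2 change 0.43, edgeR adjusted p = 0.179), against 7.23% of all genes. Psma8 entered this model through VS and VI, where it was high. With a filter of 5 CPM in 2 libraries it was not tested, and 0 members had an unadjusted p below 0.05 for amyloidosis. DESeq2 and limma-voom in the same design also called 0 members for either factor. With all 19939 genes of at least 1 count in the fit, Psmd9 passed for IT (edgeR adjusted p = 0.0301). At an unadjusted p below 0.05, DESeq2 called 0 members for amyloidosis and limma-voom 1, and each called 1 for IT. The next member in order for IT was Psmd11 (edgeR adjusted p = 0.408) in the regulatory particle, and the smallest adjusted p in the core was that of Psma4 (0.417). A miss of the threshold in this design does not show that the members did not differ.

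By counting intervals alone, 3 members were higher in both IT contrasts (Psmd7, Psmd9 and Psmd11) and 3 lower in both (Psma1, Psma4 and Psme2), or 7.5% each, against 10.3% and 9.20% of all genes. Psmd11 is not among them once the reads of its copy are added. With amyloidosis, 3 members were higher in both contrasts (Psmc4, Psmd1 and Psmd2; 7.5% against 12.3% of all genes). The 7 members lower in both were Psma7, Psma8, Psmb1, Psmd3, Psmd11, Psme1 and Psme2 (17.5% against 14.2%). Of these, Psma8 passed the 1 CPM filter only in VS and VI, where it was high. By direction only, 11 of 15 core genes were lower in both IT contrasts and 0 higher in both, and 5 of 17 regulatory genes were higher in both and 0 lower in both. The same held for 29.8% (lower) and 30.7% (higher) of all genes.

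The promoters of the members were searched for 5 short motifs. Windows from 250 bases before to 50 bases after a transcript start were taken from RefSeq on GRCm38.p6, where 34 of 41 members and 27025 genes had at least 1 window. Motifs were searched as exact letters on both strands. The ETS core CCGGAAG was found for 9 of 14 regulatory genes (64.3%) and 1 of 12 core genes (8.33%), against 9.93% of all genes. The CCAAT box CCAAT was found for 7 of 12 core genes (58.3%, the unexpressed Psmb11 included) and 4 of 14 regulatory genes (28.6%), against 41.1% of all genes. The core of the antioxidant response element (ARE), TGACNNNGC, the site type bound by NRF1, was found for 6 of 34 members (17.6%), against 14% of all genes, with 2 of 12 core and 2 of 14 regulatory genes. It begins with the same letters as the cAMP response element TGACGTCA, which 0 members and 2.03% of all genes held. The heat shock element, as inverted GAA repeats, was found for 0 members and 0.662% of all genes. A match is a string of letters, not a measured binding site. Parts of 8 windows follow, each around its matches and ending before the start site, 5′ to 3′ on the strand of the gene and with the matches in capitals. For the ETS core, shown in either orientation, they are 4 regulatory genes described above: Psmd11 (chr11:80428564-80428614, plus strand), Psmc2 (chr5:21785151-21785237, plus strand), Psmd2 (chr16:20651586-20651651, plus strand) and Psmd6 (chr14:14120946-14121030, minus strand).
Psmd11: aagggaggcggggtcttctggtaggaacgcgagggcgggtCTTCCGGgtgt
Psmc2: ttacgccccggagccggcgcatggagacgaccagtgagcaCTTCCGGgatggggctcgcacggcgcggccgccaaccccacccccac
Psmd2: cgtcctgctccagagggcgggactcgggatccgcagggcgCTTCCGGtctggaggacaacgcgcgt
Psmd6: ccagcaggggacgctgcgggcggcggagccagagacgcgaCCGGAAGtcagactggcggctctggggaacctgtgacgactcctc

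For the CCAAT box, the core genes Psma2 (chr13:14613148-14613232, plus strand) and Psmb3 (chr11:97703309-97703433, plus strand) are shown, as an alpha and a beta subunit that were both lower in each IT contrast. In VI versus VS both intervals held 0 (Psma2 −0.21 to 0.02, Psmb3 −0.17 to 0.01).
Psma2: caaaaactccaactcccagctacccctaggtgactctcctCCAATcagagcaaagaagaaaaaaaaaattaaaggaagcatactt
Psmb3: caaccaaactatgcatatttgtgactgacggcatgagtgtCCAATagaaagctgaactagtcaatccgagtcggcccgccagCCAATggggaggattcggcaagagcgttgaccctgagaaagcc

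For the ARE core, they are the catalytic Psmb5 (chr14:54617996-54618082, minus strand) and Psmd9 (chr5:123228119-123228189, plus strand), the member with the largest difference with IT.
Psmb5: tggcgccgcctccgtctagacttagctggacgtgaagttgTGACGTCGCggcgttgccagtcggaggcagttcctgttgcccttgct
Psmd9: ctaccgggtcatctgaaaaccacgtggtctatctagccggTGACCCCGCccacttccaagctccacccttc

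Other genes that build or feed the proteasome were read from fixed lists. The immunoproteasome subunits Psmb8, Psmb9 and Psmb10, which replace the catalytic subunits after interferon, summed to 69.6, 54.3, 60.2 and 48.1 CPM in VS, VI, FS and FI. Both IT libraries were below both sedentary libraries. Psmb9 had the largest ratios of the 3, at 12.2, 8.004, 12.7 and 7.15 CPM in VS, VI, FS and FI (log2 ratio −0.61 without and −0.82 with fibrils; edgeR additive model, adjusted p = 0.0819). Psmb10 was at 42.8, 33.0, 34.4 and 28.2 CPM in VS, VI, FS and FI, and Psmb8 differed less, between 12.7 CPM in FI and 14.5 in VS.

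The 5 core assembly chaperones, which build the alpha and beta rings, summed to 151, 130, 148 and 123 CPM in VS, VI, FS and FI. Of the 5, 4 were lower in both IT contrasts, as were 29.8% of all genes. Psmg3 was at 7.45, 4.35, 6.30 and 3.60 CPM in VS, VI, FS and FI, with log2 ratios of −0.77 and −0.80 with IT. Pomp, the maturation factor of the core, was at 98.5, 84.7, 101 and 83.6 CPM in VS, VI, FS and FI. By the same edgeR test and adjustment, 0 of 3 immunoproteasome genes and 0 of 5 core chaperones passed for IT, against 1.48% of all genes. At an unadjusted p below 0.05 it was 2 of each, all lower, against 7.45% of all genes.

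Nfe2l1, which encodes NRF1, was at 170, 163, 127 and 142 CPM in VS, VI, FS and FI, lower in both fibril libraries (log2 ratio −0.42 and −0.20; edgeR adjusted p = 0.174). Of the 9 genes of the NRF1 list, 1 passed for amyloidosis and 0 for IT, against 4.97% and 1.48% of all genes. It was Syvn1, the ubiquitin ligase of the endoplasmic reticulum that turns NRF1 over. Syvn1 was at 53.3, 54.3, 166 and 96.0 CPM in VS, VI, FS and FI (log2 change 1.23 with amyloidosis, edgeR adjusted p = 0.0203). Among the small Maf partners of NRF1, Maff was at 46.8, 32.6, 41.5 and 60.3 CPM in VS, VI, FS and FI, lower in VI than in VS (log2 ratio −0.52) and in FS than in VS (−0.17), and higher in FI than in VI (0.89). Mafg had log2 ratios of −0.28 and 0.44 with amyloidosis without and with IT, and Mafk of 0.40 and 0.67, while Nfe2l3 was at 1.16 to 1.81 CPM. Among the 6 ubiquitin and E1 genes, 0 passed for either factor, and Uba6, an E1 enzyme, had a log2 ratio of 0.69 in FS versus VS. None of the 8 genes of other proteasome components and associated proteins, of the 9 of shuttle receptors and p97, or of the 8 of antigen processing passed the edgeR test for either factor. At an unadjusted p below 0.05 for IT, these lists held 0, 0 and 1 gene, against 14.7% of all genes in either direction.

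Kupffer cells are the resident macrophages of the liver. The 8 Kupffer cell genes summed to 242, 294, 367 and 363 CPM in VS, VI, FS and FI. By the edgeR additive model, 2 of 8 passed for amyloidosis (Marco and C1qa, higher). Over all genes, 4.97% passed for amyloidosis and 1.48% for IT. The 6 B and plasma cell genes summed to 16.9, 12.3, 26.8 and 20.1 CPM in VS, VI, FS and FI. Of the 2 that entered the model, Igkc passed for amyloidosis (higher). In FS versus VS, 2 of the 4 expressed genes were higher and 2 lower, with Cd79a lowest (log2 ratio −0.62). In FI versus VI all 4 were higher. The 6 endothelial genes lay between 150 and 177 CPM together, and Lyve1 passed for amyloidosis (higher). The others did not all share its direction. Kdr was lower (log2 ratio −0.45 in FS versus VS and in FI versus VI). In FS versus VS, 3 of 6 were higher and 3 lower, and in FI versus VI it was 4 and 2. The erythroid genes summed to 360, 283, 253 and 339 CPM and the stellate cell genes to 192, 164, 166 and 197 CPM in VS, VI, FS and FI, with 0 genes past the edgeR test for either factor. The neutrophil genes lay between 1.95 and 4.34 CPM. Of the hepatocyte genes, Tat passed for both factors (higher). Of the 10 muscle genes, 4 entered the model, and Acta1, Mb and Tnnt3 passed for both factors (lower), with most of their counts in VS. The part of other cell types in the differences between core and regulatory genes was not tested. All 6 T and NK cell genes were below 1 CPM in each library, summing to 0.780 to 1.27 CPM.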

How the data were processed

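The authors pooled liver tissue of 4 mice per group and had RNA sequenced. Per the labels, reads were processed with fastp 0.23.2, STAR 2.5 and HTSeq 0.6.1 on mm10. The authors deposited 1 unnormalized read count per gene and library, and FPKM values, which equal the deposited count divided by gene length and library total within 0.001 for all 69722 values above 0. Members and gene lists were chosen with earlier results of these data known.

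Counts were scaled by TMM. For log2 ratios, 0.5 counts were added, and 95% intervals were exact binomial ones, conditional on the sum of both counts. Genes of at least 1 CPM in 1 library (12180) entered ratios; those of at least 1 CPM in 2 libraries (11760) entered an additive model of amyloidosis and IT, fitted by robust quasi-likelihood in edgeR, with Benjamini-Hochberg adjustment. With 1 library per group, single contrasts have no test. Named in full were 12 subunits and the 3 members with the highest and lowest ratio in each contrast, 22 in all. Psma1, Psma2, Psma7, Psmb1, Psmb3, Psmd1, Psmd5, Psmd7 and Psmd8 were named after their values were seen. The additive model was run before use on simulated data with purely additive changes and a fixed dispersion. Departures from additivity were not simulated, and in these data their counting interval was without 0 for 39.2% of expressed genes. Promoter windows came from RefSeq, and overlaps and copies from GENCODE M21, in which 29 of 41 members have the same start and end. Tools were Python 3.11.15, matplotlib 3.10.9, DESeq2 1.42.0, limma 3.58.1 and edgeR 4.0.16 in R 4.3.3. Alternatives were other scalings, filters, tools and summaries. Protein sequences were not used here. A gene of the ubiquitin list is not reported here.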

Additional observations from a re-analysis of the deposited data

Results flagged for a closer look

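Members were singled out where the effect of 1 factor had opposite signs in the presence and absence of the other, with neither counting interval holding 0. Psmc2 was lower with IT in vehicle mice (log2 ratio −0.16) and higher in fibril mice (0.22), a difference of 0.372. Arranged by amyloidosis, the same difference of 0.372 lies between −0.11 in sedentary and 0.26 in trained mice. Psmb7 was lower with IT in vehicle mice (−0.21) and higher in fibril mice (0.08), a difference of 0.295, which by amyloidosis is the same 0.295 between −0.18 in sedentary and 0.11 in trained mice. Nek6 overlaps Psmb7 on the opposite strand, and the counting by strand is not known. With all Nek6 reads added, the intervals for IT in fibril mice and for amyloidosis in sedentary mice held 0. These sums include reads outside the shared bases and so also carry the level of Nek6 itself. Psmd6 was higher with amyloidosis in sedentary mice (0.11) and lower in trained mice (−0.11), a difference of −0.217. With 1 library per group, none of these differences was tested. They are 3 of 40 members for amyloidosis and 2 for IT, while 569 and 805 of the 12180 expressed genes met the same condition. All 3 are under 1.5-fold in every contrast, and the 4 libraries enter each difference once, VS included.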

How the results depend on the processing

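No paired analysis was possible because each group is 1 library. The counts of 0 members past the additive model held in all settings for amyloidosis, and for IT in all but the fit to all genes with at least 1 count, where 1 member passed (Psmd9, adjusted p = 0.0301; 0.139 to 0.897 in the other settings). Over all genes, the additive model called 585 for amyloidosis and 174 for IT. With all genes of at least 1 count these were 1519 and 740, and with each factor fitted alone 8 and 0 (edgeR; 1 and 1 member at an unadjusted p below 0.05). For IT it was 273 with total counts and 82 with the filter at 5 CPM. Beyond 1.5-fold, Psmd9 in FI versus FS went to 0 members with total counts, with FPKM at either pseudocount and at 2-fold. Psma8 in FS versus VS went to 0 with FPKM at a pseudocount of 1, with the filter at 5 CPM and at 2-fold, and in FI versus VI to 0 with the first 2 of these. Scaling moved the sums. Regulatory minus core is the same under any scaling by 1 factor per library, so those scalings could not test it. With FPKM it stayed within its interval. It was above 0 under every alternative run. With the length class subtracted it was 0.0125 in FS versus VS, below the interval of 0.0502 to 0.113. With total counts and FPKM at pseudocounts of 1 and 0.1, the core was at −0.142, −0.144 and −0.144 in FI versus FS, −0.0460, −0.0470 and −0.0471 in FS versus VS, and −0.0658, −0.0658 and −0.0659 in FI versus VI. The regulatory particle reversed to −0.0226, −0.0385 and −0.0386 in FI versus FS, and was at 0.0356, 0.0550 and 0.0551 in FS versus VS and 0.0295, 0.0224 and 0.0224 in FI versus VI. With the mean over members, the core was at −0.0959, −0.108 and −0.103 in the contrasts FI/FS, FS/VS and FI/VI, the regulatory particle at 0.0792 in FI/VI, and their difference at 0.157, 0.114 and 0.183. With the median, the core was at −0.117 in FI versus FS and −0.0155 in FI versus VI, and the difference at 0.181 in FI versus FS. Further alternatives were chosen after seeing the data. With members of 1000 to 2000 bases only, the regulatory particle was at 0.0067 in FI versus FS and 0.0662 in FS versus VS. The difference was at 0.0762 and 0.140, with core genes mostly under and regulatory genes mostly over 1500 bases. With the median of the length class subtracted from each member, the core was at −0.0718 in VI versus VS and reversed to 0.0560 in FS versus VS and 0.106 in FI versus VI. The regulatory particle was then at 0.0685 and 0.163 in FS versus VS and FI versus VI, and the difference at 0.0125 and 0.0573. Leaving out Psma8, or counting all Psmc and Psmd genes as regulatory, moved no sum out of its interval. Of 352 ratios of single named members under other scalings, 349 stayed within their counting interval; the other 3 were Psmd2 in FI versus FS, and 0 reversed.

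Counting intervals were widest for Psma8, at under 2 CPM. Variation between mice, between pools and between library preparations is in no interval. VS, the library with the highest level of muscle genes, enters VI versus VS and FS versus VS. In FI versus FS and FI versus VI, without VS, regulatory minus core was 0.120 and 0.0953. VI, which enters the second of these, also held more muscle gene counts (9.85 CPM) than FS (0.982) and FI (0.827).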
